A study of Mus musculus with 17 samples.

Results

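The genes examined were 10 members of the machinery that builds and cross-links elastic fibres in the lung, chosen by symbol from the deposited count table: the lysyl oxidases Lox, Loxl1, Loxl2, Loxl3 and Loxl4, and the fibre components Eln, Fbn1, Fbln5, Emilin1 and Mfap4. They are 10 of the 45777 genes of the table, and all 10 were among the 22052 genes with enough counts to be tested. The mice were wild-type male C57BL/6 animals of 6 weeks of age on arrival, housed for a week before any treatment. The irradiated groups received a single fraction of 65 Gy or 75 Gy to the left lung, and the control groups received no radiation. Left lung tissue was collected after 2 weeks (3 control, 3 65 Gy and 3 75 Gy libraries) and after 6 weeks (3 control, 2 65 Gy and 3 75 Gy libraries), which gave 17 libraries in 6 groups. The paper lists 3 libraries of 65 Gy at 6 weeks, of which 2 were available here.

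Some features of these groups limit them as a model. The exposure was focal, and the RNA of irradiated lungs was taken from lesions, whereas no source used here says which piece of the control lung was taken. The controls of 6 weeks were older than those of 2 weeks, so that age and time of collection cannot be told apart. The tissue was bulk, so that fewer cells of a type and less RNA per cell cannot be told apart for any gene below.

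Elastic fibres give the alveolar wall, the airways and the arteries their recoil. Tropoelastin, the product of Eln, is secreted as a soluble monomer, is deposited on a scaffold of fibrillin microfibrils with the help of fibulins and emilins, and is made insoluble when lysyl oxidases, which need copper, oxidize its lysines. The same enzymes cross-link fibrillar collagens, which is why this gene family is followed in fibrotic tissue. In the healthy lung most elastin is laid down during alveolar development and in early postnatal life.

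The libraries held between 46764569 and 66797879 counts, with a median of 57608149, and values below are read counts per gene scaled to library size (CPM) after normalization by trimmed mean of M-values (TMM). Lung epithelium was present throughout, with a sum over 5 markers of alveolar type 2 cells, Sftpc and Sftpb among them, between 14885 and 27447 CPM. The sum over 6 macrophage markers was 490 to 1144 CPM in the controls and 1029 to 2398 CPM in the irradiated lungs. The sum over 7 endothelial markers was 3304 to 3689 CPM in the controls and 1345 to 2542 CPM in the irradiated lungs. The sum over 5 cardiac muscle markers was 58.3 to 607 CPM, those of skeletal muscle, fat, cartilage and mesothelium markers were each at most 169 CPM, and no marker list held a gene at 0 in every library. The 75 Gy library 3134 of 2 weeks had the lowest sums of alveolar fibroblast markers (1452 CPM), smooth muscle markers (415 CPM) and endothelial markers. Control library 3126 had the highest macrophage sum among the controls.

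In the text, a gene "rose" or "fell" when its adjusted p from the quasi-likelihood F test of edgeR was at most 0.05, and it is called a differentially expressed gene (DEG) when its absolute log2 fold change (log2FC) was also at least 1. Errors on log2FC are standard errors (SE), and intervals are 95% intervals from the same fit.

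Per kilobase of transcript, Mfap4, which encodes a microfibril-associated glycoprotein, had the highest level of the 10 genes in each of the 6 groups, between 311 and 459 CPM per kb as group means. Eln was the next highest in 5 of the 6 groups, at 92.5 to 186 CPM per kb, and in the controls of 6 weeks it stood lower, at 25.9 ± 3.58 CPM per kb (SD, n = 3). Loxl1, Fbln5 and Emilin1 had group means of 27.8, 26.6 and 22.5 CPM per kb there, and the range of each over the libraries overlapped that of Eln. Within the lysyl oxidases, Lox and Loxl1 together made up between 71.4% and 82.0% of the family's transcripts per kb in every library. Loxl2 was counted here without its near-identical copy Gm21451, which held 18.3% to 21.4% of their joint counts. Loxl3 held a median of 5.18% of the family and Loxl4 3.60%, and these were the lowest 2 of the 10 genes in every group.

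**Figure D1:**
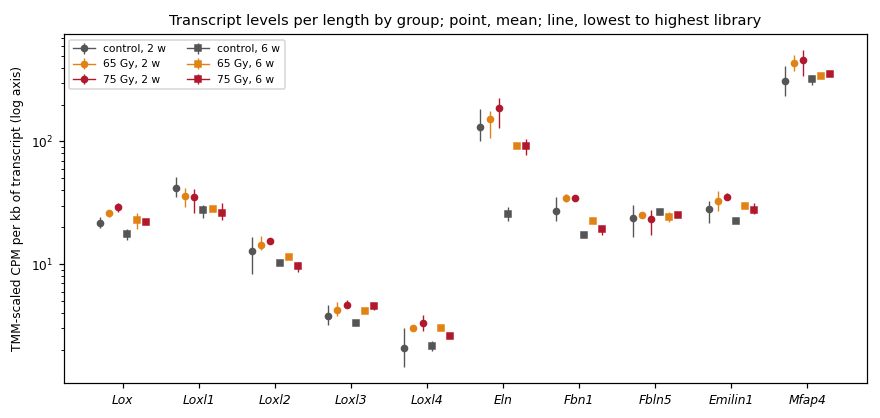
TMM-scaled CPM per kilobase of transcript (log axis) for the 10 genes, with 1 point for the mean of each group and a line from the lowest to the highest library. Mfap4 is the highest in each group, and the control group of 6 weeks stands apart in Eln, at 25.9 CPM per kb against 92.5 to 186 CPM per kb in the other groups.

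Promoter sequence from RefSeq (GRCm38.p6) was matched by gene identifier for 4 of the 10 genes. The windows before the annotated start of 2 of them are shown. The rest were left out by rules on chromosome and window length, not by their tests. Loxl4 rose at 75 Gy after 2 weeks, and Fbln5 did not pass the test in any comparison. Both are on the minus strand, Loxl4 at chr19:42612814-42613056 and Fbln5 at chr12:101819120-101819369, written 5′ to 3′ with GC boxes in capitals (GGGCGG, or CCGCCC when read on the other strand).
Loxl4: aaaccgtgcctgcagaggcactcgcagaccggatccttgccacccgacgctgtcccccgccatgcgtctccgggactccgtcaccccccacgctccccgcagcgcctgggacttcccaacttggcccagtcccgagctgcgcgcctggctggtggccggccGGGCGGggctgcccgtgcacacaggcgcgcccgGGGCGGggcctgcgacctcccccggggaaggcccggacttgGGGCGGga
Fbln5: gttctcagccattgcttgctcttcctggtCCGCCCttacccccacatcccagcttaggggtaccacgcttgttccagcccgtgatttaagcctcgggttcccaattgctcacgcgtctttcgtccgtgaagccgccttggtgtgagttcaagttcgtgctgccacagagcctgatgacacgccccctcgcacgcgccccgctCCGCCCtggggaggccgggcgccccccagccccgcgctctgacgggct
Loxl4 held 3 GC boxes and Fbln5 2. A GC box was found on either strand in 32.7% of 32851 promoter windows of 250 bases. Neither sequence held the letters TATAAA, found in 12.4% of the windows, or TGANTCA, the AP-1 motif, found in 6.75%. GC boxes were the only motif found, so that no motif overlapped another kind.

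Eln, which encodes tropoelastin and lies at chr5:134702595-134747368 (GRCm38.p6), had the largest differences of the 10 genes at 6 weeks and between the control groups. Its 3 controls of 2 weeks stood at 391, 414 and 713 CPM, and its 3 controls of 6 weeks at 86.2, 114 and 99.3 CPM. The 65 Gy libraries of 6 weeks had 373 and 342 CPM, and the 75 Gy libraries of 6 weeks had 401, 368 and 299.9 CPM. All 5 irradiated libraries of 6 weeks were therefore above all 3 controls of their time, and the highest of them, at 401 CPM, lay within the range of the 2-week controls.

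At 6 weeks Eln rose by a log2FC of 1.84 (SE 0.276, adjusted p = 0.000655) at 65 Gy and of 1.84 (SE 0.257, adjusted p = 0.000129) at 75 Gy, which are 3.58-fold and 3.57-fold. In the controls it fell by 2.34 on the log2 scale between 2 and 6 weeks (SE 0.262, adjusted p = 0.000583), so that the 2-week controls were 5.07-fold higher. Eln was a DEG in these 3 comparisons under every alternative setting and without each library in turn. The gene overlaps the long non-coding RNA Gm30003 over 1657 bases, and the strand setting of the counting is not given in the sources used here.

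At 2 weeks Eln was measured at 652, 413 and 682 CPM after 65 Gy and at 784, 872 and 499 CPM after 75 Gy. Both groups overlapped the controls of 2 weeks, in which library 3128 at 713 CPM stood above the other two. The log2FC was 0.20 (interval -0.33 to 0.73, adjusted p = 0.670) at 65 Gy and 0.51 (interval -0.026 to 1.04, adjusted p = 0.164) at 75 Gy. When single libraries were left out, the value at 75 Gy ran from 0.34 to 0.84 and its adjusted p from 0.0282 to 0.401. It passed only without library 3128, the highest of the controls (0.84, adjusted p = 0.0282).

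The difference between the effects at 6 and at 2 weeks was itself tested. For Eln it was 1.64 (SE 0.372, unadjusted p = 0.000516, adjusted p = 0.223) at 65 Gy and 1.33 (SE 0.354, unadjusted p = 0.00189, adjusted p = 0.128) at 75 Gy, so that neither passed. Of all genes, 0.0136% (65 Gy) and 0.299% (75 Gy) passed these tests, and 0.0136% and 0.254% were DEGs. DESeq2 gave adjusted p of 0.00643 and 0.0134 for the same differences. It called more genes in these tests, with 78 (65 Gy) and 301 (75 Gy) DEGs over all genes against 3 and 56 by edgeR. Eln did not pass with any other scaling, filter or choice of groups. For the other 9 genes the differences ran from -0.41 to 0.23 at 65 Gy and from -0.44 to 0.18 at 75 Gy, with a smallest adjusted p of 0.439. The 2 doses share their controls at each time.

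**Figure D2:**
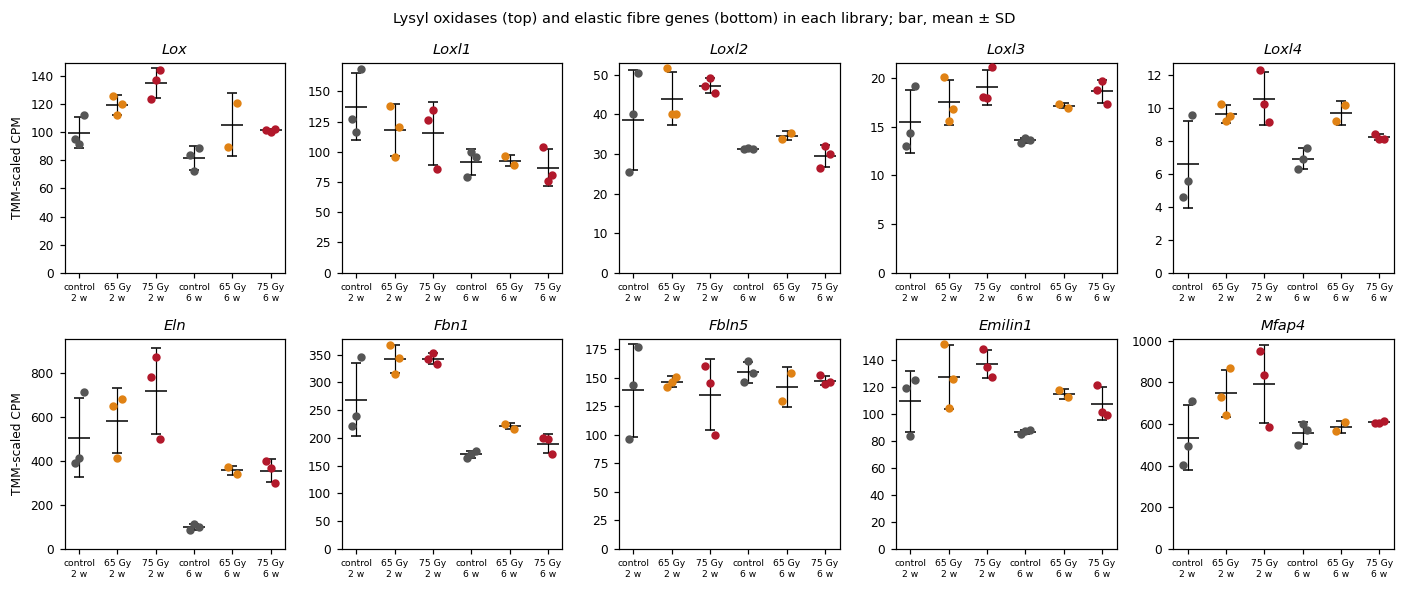
TMM-scaled CPM of the 5 lysyl oxidases (top) and 5 elastic fibre genes (bottom) in each library, with the mean and SD of each group. The 3 controls of 6 weeks lie between 86.2 and 114 CPM in Eln, below every other library, while Fbln5 groups overlap throughout.

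Among the irradiated groups the Eln values of 6 weeks were below those of 2 weeks, in comparisons added after the values were seen. At 75 Gy Eln fell by 1.01 on the log2 scale (SE 0.251, adjusted p = 0.0215), and at 65 Gy the value was -0.71 (SE 0.284, adjusted p = 0.312). In this comparison at 75 Gy, Fbn1 fell by 0.85 (adjusted p = 0.00254), Loxl2 by 0.68 (adjusted p = 0.0247) and Lox by 0.41 (adjusted p = 0.0332), so that 4 of the 10 genes fell, against 5.77% of all genes (10.8% in either direction), and 1 was a DEG against 3.16%. Eln no longer passed without library 3133, 3142 or 3143, where its log2FC was -0.85, -1.04 and -0.90. Loxl2 did not pass without the same 3 libraries and Lox without 3133, 3134, 3142 or 3143. At 65 Gy 0 of the 10 genes passed, against 0.485% of all genes, and 2 had an unadjusted p under 0.05, as 2802 of the 22052 genes did. Fbn1 (log2FC -0.63, adjusted p = 0.0798) passed there by the exact test of edgeR (0.0114), by DESeq2 (0.00356) and with only the groups compared (0.0197).

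Marker sums of some of the cell types that make elastin are given beside the Eln values. The sum over 7 adventitial fibroblast markers was 711 to 954 CPM in controls of 2 weeks and 553 to 707 CPM in controls of 6 weeks, and 712 to 888 CPM in the 5 irradiated libraries of 6 weeks. The 6-week controls were below both of these without overlap, by a narrow margin (707 CPM against 711 and 712 CPM). In the irradiated libraries of 2 weeks the sum was 619.9 to 699.6 CPM (65 Gy) and 530 to 821 CPM (75 Gy). These ranges overlapped that of the 6-week controls. Eln in the same irradiated libraries of 2 weeks was 413 to 682 CPM (65 Gy) and 499 to 872 CPM (75 Gy), above all 6-week controls. The sum over 9 smooth muscle and myofibroblast markers was 620 to 836 CPM in controls of 2 weeks and 633 to 924 CPM in controls of 6 weeks. That over 7 alveolar fibroblast markers was 4026 to 4487 CPM and 4246 to 4781 CPM. At 6 weeks the smooth muscle sum was 622 to 835 CPM in the irradiated lungs, which overlapped the controls, and the alveolar fibroblast sum was 2634 to 3102 CPM, below them. The part of these cell types in the Eln values was not tested.

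Lox encodes the founding lysyl oxidase, which oxidizes lysines of elastin and collagen, and its differences were smaller than that of Eln. Controls of 2 weeks had 95.3, 91.7 and 113 CPM, 65 Gy libraries 126, 112 and 120.1 CPM, and 75 Gy libraries 124, 138 and 144 CPM. Controls of 6 weeks had 84.2, 72.5 and 88.8 CPM, 65 Gy libraries 89.9 and 121 CPM, and 75 Gy libraries 102, 101 and 102 CPM. All irradiated libraries of 6 weeks and the 75 Gy libraries of 2 weeks were above their controls, and at 2 weeks the lowest 65 Gy library was just below the highest control.

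Lox rose at 75 Gy at both times, by 0.44 at 2 weeks (SE 0.115, adjusted p = 0.0134) and 0.31 at 6 weeks (SE 0.115, adjusted p = 0.0474). At 65 Gy the values were 0.26 (SE 0.115, adjusted p = 0.173) and 0.37 (SE 0.128, adjusted p = 0.0669). The call at 75 Gy and 2 weeks was lost without library 3127 or 3134, where the log2FC was 0.38 and 0.39. That at 6 weeks was lost without 3135, 3136, 3141, 3142 or 3143, where it ran from 0.23 to 0.33, and with no filter except 1 count (0.32, adjusted p = 0.0578). At 65 Gy and 6 weeks Lox passed without 3138, at 0.58 (adjusted p = 0.0304).

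Loxl4, a family member with scavenger receptor domains, had the lowest level of the 10 genes. Controls of 2 weeks had 4.61, 5.55 and 9.57 CPM, against 10.2, 9.20 and 9.49 CPM at 65 Gy and 12.3, 10.3 and 9.13 CPM at 75 Gy. Control library 3128 lay within the range of the irradiated libraries and the other two below it. The log2FC was 0.55 (SE 0.202, adjusted p = 0.0950) at 65 Gy, and Loxl4 rose by 0.68 (SE 0.202, adjusted p = 0.0241) at 75 Gy. Without library 3128 the values were 0.93 (adjusted p = 0.00181) and 1.06 (adjusted p = 0.000468), and the call at 75 Gy was lost without 3126, 3127 or 3132, at 0.49, 0.57 and 0.55. At 6 weeks the controls had 6.29 to 7.59 CPM and the 5 irradiated libraries 8.14 to 10.2 CPM, without overlap, and the test passed at neither dose (log2FC 0.48 and 0.25, adjusted p = 0.160 and 0.349).

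Loxl3, a relative of Loxl4 with the same kind of domains, differed at 6 weeks. Its controls of 6 weeks had 13.3, 13.9 and 13.7 CPM, the 65 Gy libraries 17.3 and 16.9 CPM, and the 75 Gy libraries 18.8, 19.7 and 17.3 CPM. The groups did not overlap, and the 3 controls were within 1 CPM of each other. Loxl3 rose by 0.45 at 75 Gy (SE 0.134, adjusted p = 0.0160), a call lost without 3135 or 3142 (0.44 and 0.42), and the value at 65 Gy was 0.33 (SE 0.148, adjusted p = 0.146). At 2 weeks the controls had 13.0 to 19.2 CPM and overlapped both doses. Loxl3 shares 1301 bases with Htra2, so that reads there may belong to either gene.

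Loxl1, which is needed to keep elastic fibres renewed, and Loxl2, which also acts on collagen IV of basement membranes, did not pass at either dose and time. Loxl1 ran from 75.8 to 169 CPM over all libraries, and its log2FC against controls lay between -0.25 and 0.020. Loxl2 ran from 25.4 to 51.7 CPM, with log2FC between -0.088 and 0.29, and it rose at 75 Gy and 2 weeks only without library 3128 (0.53, adjusted p = 0.0376). Loxl2 at chr14:69608692-69695834 has a near-identical copy, Gm21451, at chr14:69390417-69477453. Of the 100-base windows of Loxl2 transcripts, 70.8% occur in the copy, so the division of reads between them is uncertain. The copy held 18.3% to 21.4% of their joint counts in the libraries, and with both added together Loxl2 did not pass in any of the 4 comparisons with controls, with values of -0.082 to 0.27.

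Fbn1 encodes fibrillin-1, the backbone of microfibrils, and fell with time in the controls. The controls of 2 weeks had 222, 240.2 and 345 CPM and those of 6 weeks 164, 171 and 175 CPM, without overlap. It fell by 0.66 (SE 0.131, adjusted p = 0.0217), and the call was lost without 3135, 3136 or 3137, where the log2FC stayed between -0.68 and -0.64. After irradiation Fbn1 stood at 316 to 367 CPM (65 Gy) and 333 to 353 CPM (75 Gy) at 2 weeks, and at 217 to 225 CPM and 171 to 200.3 CPM at 6 weeks. Its 4 log2FC values against controls, 0.35, 0.35, 0.38 and 0.16, did not pass. When single libraries were left out, the 2-week values ran from 0.23 to 0.57 at 65 Gy (adjusted p up to 0.283). At 75 Gy they ran from 0.24 to 0.57 (adjusted p up to 0.229). Among these fits both passed only without library 3128, at 0.57 and 0.57. Per kb of transcript, Eln was 4.40 to 5.28 times Fbn1 in the 2-week controls, 1.34 to 1.70 times in the 6-week controls, and 4.03 to 5.11 times in the irradiated lungs of 6 weeks.

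Mfap4 had 404, 492 and 708 CPM in controls of 2 weeks, 730.0, 641 and 869 CPM after 65 Gy and 952, 834 and 585 CPM after 75 Gy. Library 3128 of the controls and 3134 of the 75 Gy group overlapped the other group. Mfap4 rose by 0.56 at 75 Gy (SE 0.193, adjusted p = 0.0475), and the value at 65 Gy was 0.48 (SE 0.192, adjusted p = 0.125). The call at 75 Gy was lost without 3126, 3127, 3132 or 3133, with values of 0.40 to 0.52, and Mfap4 passed at 65 Gy without 3128 (0.74, adjusted p = 0.0248). At 6 weeks the libraries of the 3 groups lay between 496 and 616 CPM and the log2FC was 0.077 and 0.13.

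Emilin1, an elastin-binding protein at the interface of fibre and microfibril, and Fbln5, the fibulin that tethers elastin to cells and microfibrils, did not pass in any comparison with controls. Emilin1 of 6 weeks was 85.0 to 87.9 CPM in the controls and 99.3 to 121 CPM in the 5 irradiated libraries, without overlap, with log2FC of 0.41 (adjusted p = 0.110) and 0.31 (adjusted p = 0.114). Fbln5 ran from 96.4 to 177 CPM over all libraries. Its log2FC was between -0.13 and 0.075 in the 4 comparisons, and the intervals of the 9 genes other than Eln reached no further than -0.65 and 1.11.

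As a set, 0 of the 10 genes passed at 65 Gy and 2 weeks, against 11.0% of all genes (6.70% higher and 4.29% lower, with 4.35% DEGs). With an unadjusted p under 0.05 there were 4, beside 5611 of the 22052 genes, and both DESeq2 and the exact test of edgeR also passed 0. At 75 Gy and 2 weeks 3 rose (Lox, Loxl4 and Mfap4), against 11.8% of all genes (10.5% fell and 22.3% passed in all), and 0 were DEGs against 7.74%. By DESeq2 these were joined by Fbn1. At 65 Gy and 6 weeks 1 rose (Eln), against 7.66% of all genes (7.01% fell and 14.7% passed in all). At 75 Gy and 6 weeks 3 rose (Lox, Loxl3 and Eln), against 18.0% (18.0% fell and 36.0% passed in all). Eln was the 1 DEG in each, against 5.28% and 10.4% of all genes. In the controls 2 of the 10 (Eln and Fbn1) fell between 2 and 6 weeks, against 1.02% of all genes (1.63% passed in all), and 1 was a DEG against 0.576%. The 10 genes' median log2FC was 0.21, 0.34, 0.35 and 0.21 in the 4 comparisons with controls in that order (65 Gy then 75 Gy at 2 weeks, then at 6 weeks), and the median of all genes was -0.0085, 0.00084, 0.0081 and 0.040.

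**Figure D3:**
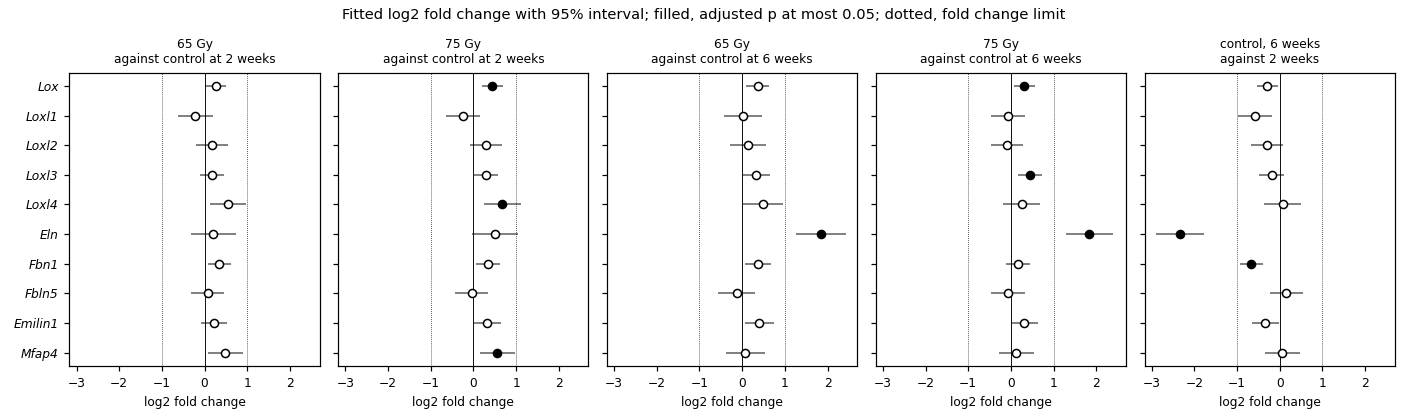
Fitted log2FC of the 10 genes with 95% intervals in the 4 comparisons with controls and between the control groups. Filled points passed at an adjusted p of at most 0.05, and dotted lines mark the fold change limit of 1. Eln lies at 1.84 and 1.84 at 6 weeks and at -2.34 between the controls, and every other gene lies between -0.66 and 0.68.

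At 6 weeks the irradiated libraries were all above the controls in 7 of the 10 genes at 65 Gy and in 6 at 75 Gy, where 28.2% and 29.4% of all genes showed the same. Between the doses, 0 of the 10 genes passed at either time (0.00% of all genes, 0 with an unadjusted p under 0.05, and 0 by DESeq2 and by the exact test of edgeR). For Eln 75 Gy against 65 Gy was 0.30 (interval -0.23 to 0.83) at 2 weeks and -0.0043 (interval -0.60 to 0.59) at 6 weeks. The other 9 genes lay between -0.12 and 0.18 at 2 weeks and between -0.23 and 0.12 at 6 weeks, with intervals from -0.71 to 0.56.

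Over the 17 libraries Eln followed Fbn1 (Pearson r = 0.848 of log2 CPM), Emilin1 (r = 0.818) and Lox (r = 0.788), and Fbln5 followed none of these (r of -0.052 with Fbn1, -0.16 with Emilin1 and -0.16 with Lox). These values are descriptions over libraries that share group, time and scaling. Outside the 10 genes, the pattern most like that of Eln was that of Col3a1 (r = 0.955), a fibrillar collagen chain, and Tmem171 (r = 0.954). Loxl1 was most like Col6a2 (r = 0.933), Loxl4 like Fkbp10 (r = 0.901), a chaperone of collagen folding, and Fbn1 like Rab27a (r = 0.929). Loxl2 was most like its own copy Gm21451 (r = 0.971). The division of reads within this pair is uncertain, so this r does not show a likeness of separate genes. Next for Loxl2 was Sparc (r = 0.934), a collagen-binding matrix protein. The closest genes of the remaining members were Adamts12 for Lox (r = 0.908), Cd276 for Loxl3 (r = 0.920) and Itgb6 for Emilin1 (r = 0.895). For Mfap4 it was Mmd (r = 0.905) and for Fbln5 it was Gm40469 (r = 0.889).

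Fibrillar collagens are the other substrates of these enzymes. Of 5 chains 1, 1, 2 and 2 rose, where 6.70%, 11.8%, 7.66% and 18.0% of all genes did, and 0 fell. Col5a2 rose in all 4 comparisons with controls, from 0.53 (SE 0.114, adjusted p = 0.00836) at 65 Gy and 2 weeks to 1.27 (SE 0.116, adjusted p = 5.04e-06) at 75 Gy and 6 weeks. Col3a1 rose at 6 weeks, by 0.82 (SE 0.211, adjusted p = 0.0180) at 65 Gy and 0.94 (SE 0.192, adjusted p = 0.00183) at 75 Gy. It had 412, 556 and 499.5 CPM in controls of 6 weeks against 809 to 1094 CPM in the 5 irradiated libraries, and 724 to 1334 CPM in controls of 2 weeks. Between the control times Col3a1 fell by 1.01 (adjusted p = 0.0175) and Col5a2 by 0.75 (adjusted p = 0.00495). The other 3 chains did not pass, and without library 3128, 3 of the 5 rose at each dose after 2 weeks, as 3 did at 75 Gy without 3132. The medians of the 5 were 0.36, 0.45, 0.70 and 0.42. The Col3a1 call at 65 Gy was lost without 3135, 3138 or 3140, at 0.71, 0.74 and 0.93.

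Among the elastases, the proteases that degrade elastin, Mmp12, Ctsk and Ctss rose at both doses and times and Mmp9 fell. Mmp12, macrophage metalloelastase, had 3.70 to 6.92 CPM in the 6 controls, 40.3 to 51.9 CPM at 65 Gy and 65.5 to 174 CPM at 75 Gy after 2 weeks, and 192 to 279 CPM in the 5 irradiated libraries of 6 weeks. It rose by 3.12, 4.30, 5.49 and 5.70 in the 4 comparisons (adjusted p at most 5.48e-05). Ctsk, cathepsin K, rose by 2.55 to 2.94 and Ctss, cathepsin S, by 2.27 to 3.34, while Mmp9, a gelatinase abundant in neutrophils, fell by 1.68 to 2.36.

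Of the 11 elastases tested, 3, 5, 6 and 7 rose in the 4 comparisons (6.70%, 11.8%, 7.66% and 18.0% of all genes) and Mmp9 alone fell in each, with medians of 0.57, 0.72, 0.87 and 1.07. Without 1 library the counts that rose were 3 to 5, 4 to 7, 4 to 6 and 6 to 7, the highest at 2 weeks being without 3128 (65 Gy) and 3126 (75 Gy) and the lowest at 65 Gy and 6 weeks without 3138 or 3140. Mmp9 did not pass there without 3138. Beside Mmp12, Ctsk and Ctss, the genes that rose were the metalloproteinases Mmp14 (1.21) and Mmp2 (0.72) at 75 Gy and 2 weeks, both of them at 6 weeks (1.05 to 1.22), Ctsl, cathepsin L, at 6 weeks (0.76 and 1.07), and Cela1, a pancreatic-type elastase, at 75 Gy and 6 weeks (1.09). Some of these calls were lost when 1 library was left out, while the log2FC kept its direction. Such fits also had fewer libraries, so a lost call does not show that the rise depended on the library left out. At 65 Gy and 6 weeks Mmp14 did not pass without 3138 or 3140 (1.03 to 1.15), Mmp2 without 3138 (1.08) and Ctsl without 3140 (0.61). At 75 Gy, Mmp2 did not pass at 2 weeks without 3127, 3132 or 3133 (0.62 to 0.69), nor Cela1 at 6 weeks without 3135, 3137, 3142 or 3143 (0.86 to 1.08). Mmp12, Ctsk and Ctss are made by macrophages. At 2 weeks the macrophage marker sum was 532 to 1144 CPM in controls, 1029 to 1169 CPM at 65 Gy and 1117 to 1769 CPM at 75 Gy, and at 6 weeks it was 490 to 660 CPM in controls, 1833 to 2398 CPM at 65 Gy and 1751 to 2022 CPM at 75 Gy. At least 5 of the 6 macrophage markers rose in each of the 4 comparisons, and their part in these values was not tested.

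Of the inhibitors of elastases, Timp1 and Serpina3n rose in all 4 comparisons. Timp1, an inhibitor of metalloproteinases, had 3.77 to 15.7 CPM in the controls and 20.3 to 98.1 CPM in the irradiated lungs, and rose by 1.81, 2.58, 2.42 and 2.63, the first of which did not pass without 3127, 3128 or 3129 (1.54, 1.67 and 1.32). Of 9 inhibitors 2, 4, 5 and 6 rose (6.70%, 11.8%, 7.66% and 18.0% of all genes) and 0, 1, 1 and 2 fell (4.29%, 10.5%, 7.01% and 18.0% of all genes), with medians of 0.27, 0.32, 0.68 and 1.01. Cst3, cystatin C, an inhibitor of cathepsins, rose at 75 Gy and 2 weeks by 0.32 and at 6 weeks by 0.56 and 0.89, Timp4 rose at 75 Gy and 6 weeks by 1.06, and Slpi, an inhibitor of neutrophil elastase, by 0.68 and 1.01, and Serpina3n rose in all 4 comparisons, by 0.87 to 1.50. The Serpina3n calls did not hold at 2 weeks without 3127, 3128 or 3129 (65 Gy) and 3127, 3128 or 3134 (75 Gy), with values of 0.66 to 0.83, nor at 65 Gy and 6 weeks without 3140 (1.03). A2m, a broad protease trap, rose by 2.12 at 75 Gy and 2 weeks, a call lost without 3128 or 3134 (2.11 and 2.16), and by 2.67 and 2.93 at 6 weeks. The A2m call at 65 Gy and 6 weeks was lost without any 1 of the 5 libraries (2.55 to 2.82), and the Cst3 call at 65 Gy was lost without 3138 (0.57). Timp3, which is bound in the matrix, fell by 0.50 at 75 Gy and 2 weeks and by 0.59 and 0.62 at 6 weeks, and Timp2 fell by 0.43 at 75 Gy and 6 weeks. Timp3 did not pass at 65 Gy and 6 weeks without any 1 of the 5 libraries (-0.71 to -0.46), nor at 75 Gy and 2 weeks without 3127, 3128 or 3134 (-0.47 to -0.32). Slpi did not pass at 65 Gy without 3135, 3137, 3138 or 3140 (0.53 to 0.71), nor Cst3 at 75 Gy and 2 weeks without 3127, 3128, 3132 or 3134 (0.22 to 0.31). Neither Timp4 (0.89 to 1.07) nor Timp2 (-0.42 to -0.37) passed at 75 Gy and 6 weeks without 3136, 3137, 3142 or 3143. Without library 3128 or 3129, 0 of the inhibitors rose at 65 Gy and 2 weeks, and without 3134, 1 rose at 75 Gy and 2 weeks, while at 65 Gy and 6 weeks 2 rose without 3138 or 3140.

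**Figure D4:**
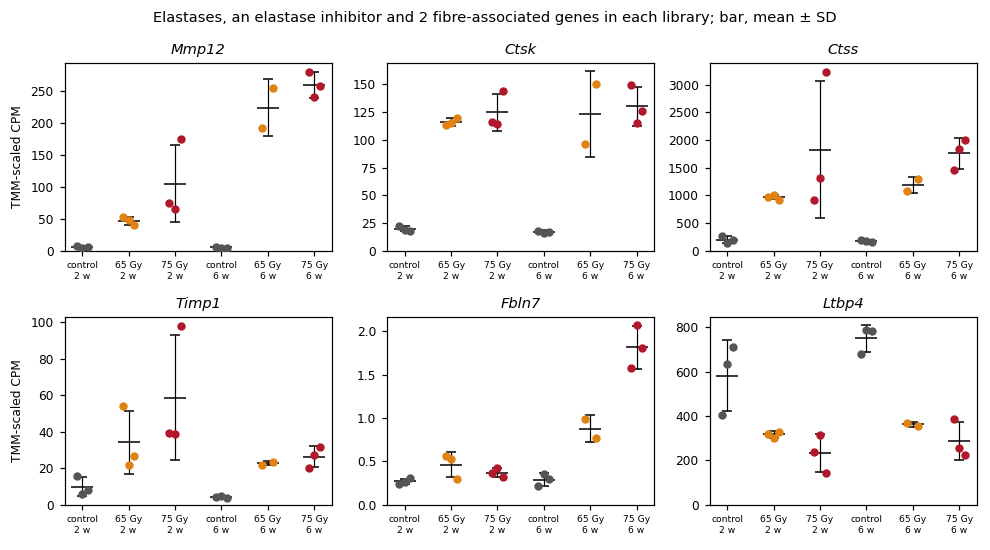
TMM-scaled CPM in each library, with the mean and SD of each group, of the elastases Mmp12, Ctsk and Ctss, the inhibitor Timp1, and the fibre-associated genes Fbln7 and Ltbp4. Mmp12 is below 7 CPM in all 6 controls and 192 to 279 CPM in the irradiated lungs of 6 weeks, and Ltbp4 is lower in all 11 irradiated libraries (142 to 385 CPM) than in the controls (403 to 786 CPM).

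The genes of microfibril and fibre assembly moved in both directions. Of 21 such genes 2, 3, 2 and 4 rose in the 4 comparisons, where 6.70%, 11.8%, 7.66% and 18.0% of all genes did. Those that fell numbered 6, 10, 4 and 8, where 4.29%, 10.5%, 7.01% and 18.0% of all genes fell, and their medians were -0.34, -0.49, -0.28 and -0.29. Ltbp4, a microfibril protein that helps fibulins assemble elastin, had 403 to 786 CPM in the 6 controls and 142 to 385 CPM in the 11 irradiated libraries. It fell by 0.88, 1.32, 1.05 and 1.38, and the call at 65 Gy and 6 weeks was lost without 3136, 3137, 3138 or 3140, where the log2FC ran from -1.07 to -1.01. Mfap2, a microfibril-associated glycoprotein, fell by 0.92 at both doses after 2 weeks and by 0.79 at 75 Gy after 6 weeks, Adamtsl4, which binds microfibrils, fell by 0.64 and 0.80 and Thsd4 by 0.72 and 0.72 at 75 Gy. At 65 Gy and 6 weeks the 4 that fell were Ltbp4, Fbn2, the fibrillin of developing fibres (-1.42), Adamts10 (-0.60) and Adamtsl4 (-0.43). Neither Adamts10 (-0.67 to -0.51) nor Adamtsl4 (-0.47 to -0.36) passed there without any 1 of the 5 libraries, and Fbn2 did not without 3136, 3137, 3138 or 3140 (-1.73 to -1.15).

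Genes of this set that rose were Ltbp2 at 6 weeks (0.89 and 0.72), Efemp2, or fibulin-4, which brings lysyl oxidase to elastin, at 2 weeks (0.37 and 0.42) and at 75 Gy and 6 weeks (0.32), Mmrn2, an endothelial emilin relative, at 2 weeks (0.89 and 0.89), Emilin2 at 75 Gy and 2 weeks (0.86), Mfap5 at 75 Gy and 6 weeks (1.10), and Fbln7 at 6 weeks (1.61 and 2.65). Efemp2 lost its call at 65 Gy without 3127 or 3129 (0.32 and 0.30), Ltbp2 at 65 Gy without 3138 or 3140 (0.94 and 0.87), Fbln7 at 65 Gy without 3138 (1.42), and Emilin2 without 3126, 3127, 3128 or 3134 (0.26 to 0.90). Without 1 library, the genes of this set that fell numbered 1 to 7 at 65 Gy and 2 weeks, lowest without 3131, and 0 to 2 at 65 Gy and 6 weeks, where 0 rose without 3138. At 75 Gy they numbered 8 to 12 and 6 to 8. Alveolar fibroblast and endothelial marker sums were lower in the same irradiated groups, and their part in these values was not tested.

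Among genes that mature the enzymes, supply copper or join collagen and elastin cross-linking, Fn1, the fibronectin that binds lysyl oxidase and its activating protease, rose in all 4 comparisons by 1.29 to 1.47. Atox1, the copper chaperone that hands copper to the secretory pathway, rose by 0.46, 0.81, 0.89 and 1.10. Plod1, a lysyl hydroxylase, rose by 0.42 and 0.33 at 6 weeks, and Plod2, the one that hydroxylates collagen telopeptides, fell by 0.61 and 0.78. Of 13 genes of this kind 2, 4, 3 and 4 rose (6.70%, 11.8%, 7.66% and 18.0% of all genes) and 1, 0, 1 and 3 fell (4.29%, 10.5%, 7.01% and 18.0%), and the medians were 0.13, 0.15, 0.23 and 0.097. Tll1, a protease of the family that activates lysyl oxidases, fell at 65 Gy and 2 weeks by 1.005, a call lost without 3127, 3128, 3129 or 3131 (-0.98 to -0.67), and at 75 Gy and 6 weeks by 1.09. At 75 Gy and 6 weeks Fmod, or fibromodulin, a collagen-binding proteoglycan, also rose, by 1.92, and the copper transporter gene Atp7a fell by 0.42. Fkbp10 rose at 75 Gy and 2 weeks by 0.44, a call lost without 3126, 3127 or 3132 (0.34 to 0.40). Plod2 at 65 Gy did not pass without 3135, 3136, 3138 or 3140 (-0.78 to -0.44). Plod3 rose at 75 Gy and 2 weeks by 0.40, a call lost without 3134 (0.23). At 65 Gy, the Atox1 call at 2 weeks was lost without 3127, 3128, 3129 or 3131 (0.40 to 0.48), and the Plod1 call at 6 weeks without 3136 or 3138 (0.37 and 0.38).

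Of 7 receptors of elastin and of its fragments, 5, 6, 3 and 6 rose (6.70%, 11.8%, 7.66% and 18.0% of all genes) and 0, 0, 1 and 1 fell (4.29%, 10.5%, 7.01% and 18.0%). Neu1 and Ctsa, subunits of the elastin receptor complex that also work in the lysosome, rose in all 4 comparisons, by 0.45 to 0.64 and by 0.80 to 1.14. Lgals3, which encodes galectin-3, an elastin-binding lectin abundant in macrophages, rose by 1.24 to 1.86. Itgav, an integrin chain, rose by 0.41 and 0.42 at 2 weeks and by 0.20 at 75 Gy and 6 weeks, while its partner Itgb3 fell by 0.41 and 0.62 at 6 weeks. Glb1, whose splice product is the elastin-binding subunit, rose by 0.63 and 0.76 at 2 weeks and by 0.54 at 75 Gy and 6 weeks, and Itgb5, an integrin chain, rose at 75 Gy by 0.34 and 0.39. Calls were lost for Itgav at 75 Gy and 6 weeks without 3135, 3136, 3137, 3142 or 3143 (0.17 to 0.22), for Itgb3 at 65 Gy without 3135, 3138 or 3140 (-0.42 to -0.36), and for Itgb5 at 2 weeks without 3127 or 3134 (0.28 to 0.31). The medians of the receptors were 0.46, 0.64, 0.45 and 0.45.

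**Figure D5:**
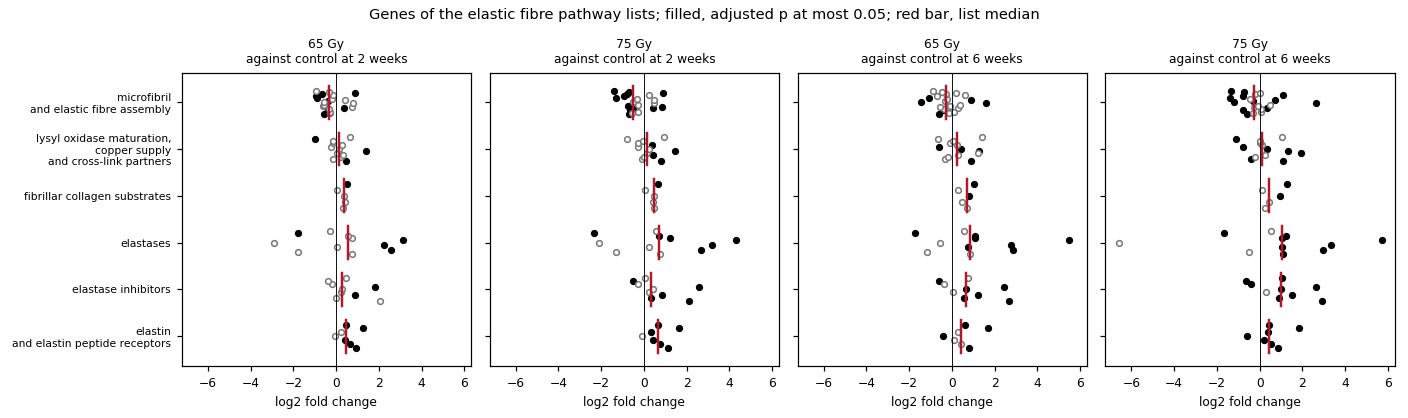
Fitted log2FC of every tested gene of the 6 pathway lists in the 4 comparisons with controls, with filled points for an adjusted p of at most 0.05 and a red bar for the list median. The elastase medians run from 0.57 to 1.07, and those of microfibril and elastic fibre assembly from -0.49 to -0.28.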

How the data were processed

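Total RNA of 17 mouse lung libraries was sequenced with a stranded mRNA kit. The authors checked reads with FastQC, trimmed them with Trimmomatic, aligned them with HISAT2 to GRCm38.p6 and estimated expression with StringTie. The deposited values are whole-number read counts per gene, not normalized. How StringTie output became counts and the strand setting are not given in the sources used here. Nothing states that libraries of a group came from separate mice, so that p-values measure the spread between libraries. Counting error is larger for genes of low level.

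A single edgeR 4.0.16 model in R 4.3.3 covered every library, with a coefficient for each group and no covariates. The function filterByExpr (minimum count 10, minimum total 15) kept 22052 genes, TMM factors scaled libraries, and groups were compared by quasi-likelihood F tests with Benjamini-Hochberg adjustment over all of them. The fit was tested on simulated data. No pair of libraries of a group agreed within sampling noise, by the mean chi-square of counts per gene, for which no p-value was computed. It ran from 14.0 (3130 and 3131) to 240 (3132 and 3134). Control library 3126 gave 110 with 3127 and 116 with 3128, and those 2 gave 27.6 with each other.

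Alternatives were other scalings and filters, only the groups compared, the exact test of edgeR, DESeq2 1.42.0, no fold change limit, and each library left out. The comparisons of 6 with 2 weeks within a dose, the sum of Loxl2 with its copy, and the alternatives for the pathway lists were chosen after the values were seen. Levels per kb used the median length of GENCODE transcripts of GRCm38.

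The 10 genes and the pathway and marker lists were chosen with earlier results of these data known. Named from each pathway list were the 3 genes with the smallest p among those that passed in each comparison with controls, and any called between doses or between effects; other genes of these lists were named after their values were seen. Genes shown for likeness were those with the highest Pearson r of log2 CPM (prior count 2).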

Additional observations from a re-analysis of the deposited data

Results flagged for a closer look

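The effect of 75 Gy on Fbln7, a fibulin family gene, differed between the times by a test of the difference itself, at 2.19 on the log2 scale (SE 0.412, adjusted p = 0.0372, edgeR quasi-likelihood test). Its level was low in all libraries. At 2 weeks the controls had 0.244, 0.257 and 0.305 CPM and the 75 Gy libraries 0.368, 0.429 and 0.317 CPM. At 6 weeks the controls had 0.211, 0.357 and 0.297 CPM and the 75 Gy libraries 1.57, 2.07 and 1.81 CPM, all above every other library of the study. At 65 Gy and 6 weeks it had 0.989 and 0.768 CPM, a rise of 1.61 (SE 0.306, adjusted p = 0.00358) that did not pass without 3138 (1.42, adjusted p = 0.0503), and the difference between the times at 65 Gy was 0.82 (adjusted p = 0.601). At 75 Gy the difference between the times kept its direction without each library, from 2.00 to 2.37, and lost its call without any of 10 of the 12 libraries involved, the exceptions being 3132 and 3141. It also lost its call with no filter except 1 count (2.17, adjusted p = 0.0522) and with only the groups compared (2.18, adjusted p = 0.0506).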

How the results depend on the processing

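No paired analysis was possible because the labels give every library a number that occurs only once. Eln kept its call in the 3 comparisons where it was a DEG. Its log2FC without 1 library was 1.75 to 1.95 at 65 Gy and 1.74 to 1.96 at 75 Gy (6 weeks) and -2.50 to -2.01 between the controls, and all other settings gave values within these ranges. Without the fold change limit the number of the 10 genes called was 3 at 75 Gy and 2 weeks, 3 at 75 Gy and 6 weeks, 2 between the controls and 4 at 75 Gy between the times. With DESeq2 it was 1 for each of the 2 differences between effects (0 with edgeR). For 75 Gy between the times it was 0 with upper-quartile factors and 0 with only the groups compared, and it ran from 0 to 1 when libraries were left out, as it did at 75 Gy and 2 weeks. With only the groups compared, Lox, Loxl4 and Mfap4 did not pass at 75 Gy and 2 weeks (adjusted p = 0.0791, 0.176 and 0.217), nor Fbn1 between the controls (0.118), while at 6 weeks Loxl3, Loxl4, Fbn1 and Emilin1 passed at 65 Gy (0.0105, 0.0185, 0.00237 and 0.00154) and Emilin1 at 75 Gy (0.0156). Lox at 75 Gy and 6 weeks did not pass with no filter except 1 count (0.0578). At 65 Gy and 6 weeks it passed with DESeq2 (0.0344), with upper-quartile factors (0.0491) and with at least 10 counts in every library (0.0489).

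Values that changed sign had not passed. Without 1 library, Loxl2 at 65 Gy and 2 weeks ran from -0.040 to 0.42, and Fbln5 from -0.13 to 0.29 there and from -0.24 to 0.17 at 75 Gy. At 6 weeks, Loxl1 ran from -0.075 to 0.086 at 65 Gy and from -0.23 to 0.025 at 75 Gy, and Fbln5 from -0.24 to 0.0036 at 65 Gy. Between the controls, Loxl4 ran from -0.13 to 0.45, Fbln5 from -0.051 to 0.37 and Mfap4 from -0.11 to 0.31. Between the doses at 6 weeks, Eln was 0.010 with upper-quartile factors and ran from -0.11 to 0.11 without 1 library. The cause was not tested.

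Over all genes, the DEGs at 75 Gy and 2 weeks numbered 1707, and 834 with only the groups compared. Those between the controls numbered 127, and 32 with only the groups compared, 225 with DESeq2 and 238 with the exact test. Those at 75 Gy between the times numbered 696, and 171 with only the groups compared. The 2 differences between effects gave 3 and 56, and 78 and 301 with DESeq2. Of the assembly genes at 75 Gy and 2 weeks, 10 fell and 3 rose, and 2 and 0 did with only the groups compared, while at 65 Gy and 6 weeks 4 fell and 2 rose, and 9 and 5 did with that setting. With it, 1 inhibitor, 3 elastases and 3 receptors rose at 75 Gy and 2 weeks, and 5 collagens and 6 maturation genes rose at 65 Gy and 6 weeks. With only the groups compared, Efemp2, Tll1 and Serpina3n at 65 Gy and Ltbp4, Plod3, Serpina3n and A2m at 75 Gy no longer passed at 2 weeks. Depth limits genes of low level such as Fbln7, at 0.211 to 0.357 CPM in the controls. A comparison that leaves out a 65 Gy library of 6 weeks has 1 library in that group, assumed to vary like the other groups.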
